A study of Mus musculus with 8 samples.

Results

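A set of 10 genes, 9 of them encoding growth factors or a chemokine that glioma cells can respond to, were read in RNA from microglia sorted from the mouse optic nerve. Their values were taken by gene symbol, as the rows of the deposited gene table named Igf1, Hgf, Pdgfa, Pdgfb, Vegfa, Tgfa, Hbegf, Bdnf, Cxcl12 and Mgea5, which is 10 of 37447 genes. The microglia came from C57BL/6 mice at 3 months of age. FF mice are Nf1 flox/flox, so both copies of the neurofibromin gene can be deleted but no Cre is present. FFC mice carry the same Nf1 flox/flox alleles and GFAP-Cre, a Cre recombinase under the Gfap promoter, which is active in astrocytes and their precursors; microglia do not arise from these cells. Each genotype had 4 libraries, 2 from females and 2 from males. The series is titled for low-grade glioma, but the labels of these 8 libraries record no tumour, and they number biological replicates without saying whether each was 1 animal or a pool of animals. The p-values therefore measure the spread between libraries, which may be partly technical.

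Microglia supply neighbouring cells with secreted factors, and in the optic nerve those neighbours are astrocytes, oligodendrocyte precursors, blood vessels and the axons of retinal neurons. Insulin-like growth factor 1, hepatocyte growth factor, the platelet-derived growth factors, vascular endothelial growth factor A, the EGF receptor ligands Tgfa and Hbegf, and brain-derived neurotrophic factor each bind receptor tyrosine kinases, which signal through Ras, the protein that neurofibromin holds in check. Cxcl12 is a chemokine that acts on the receptors Cxcr4 and Cxcr7. Mgea5 is not a growth factor: it encodes O-GlcNAcase, the enzyme that removes O-linked N-acetylglucosamine from nuclear and cytosolic proteins.

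The sorted material carried the microglial programme in all libraries. The summed FPKM (fragments scaled for transcript length and library size, the deposited unit) of 12 microglial markers lay between 1715 and 5039 in FF and between 3191 and 5796 in FFC, with no marker at 0 in any library. FF 2 had the lowest of these sums and, with FF 4, the lowest median rank correlation with the other libraries (0.398 and 0.464, against 0.507 to 0.597). Of the 12 markers, 10 had a higher mean log2(FPKM + 1) in FFC and 2 a lower one. Their median difference was 0.48, against 0.19 over all genes tested below. Without FF 2 and FF 4 these medians were -0.06 and 0.08. The part of this in the growth factor values was not tested. FF 2 and FF 4 also had the lowest FPKM summed over all genes (391924 and 367760, against 525184 to 700291), so their low values may be partly library-wide. Protein-coding genes held from 58.5% of the summed FPKM in FF 2 to 90.4% in FFC 4. Read counts were not used here, and the depth of each library is unknown.

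**Figure D1:**
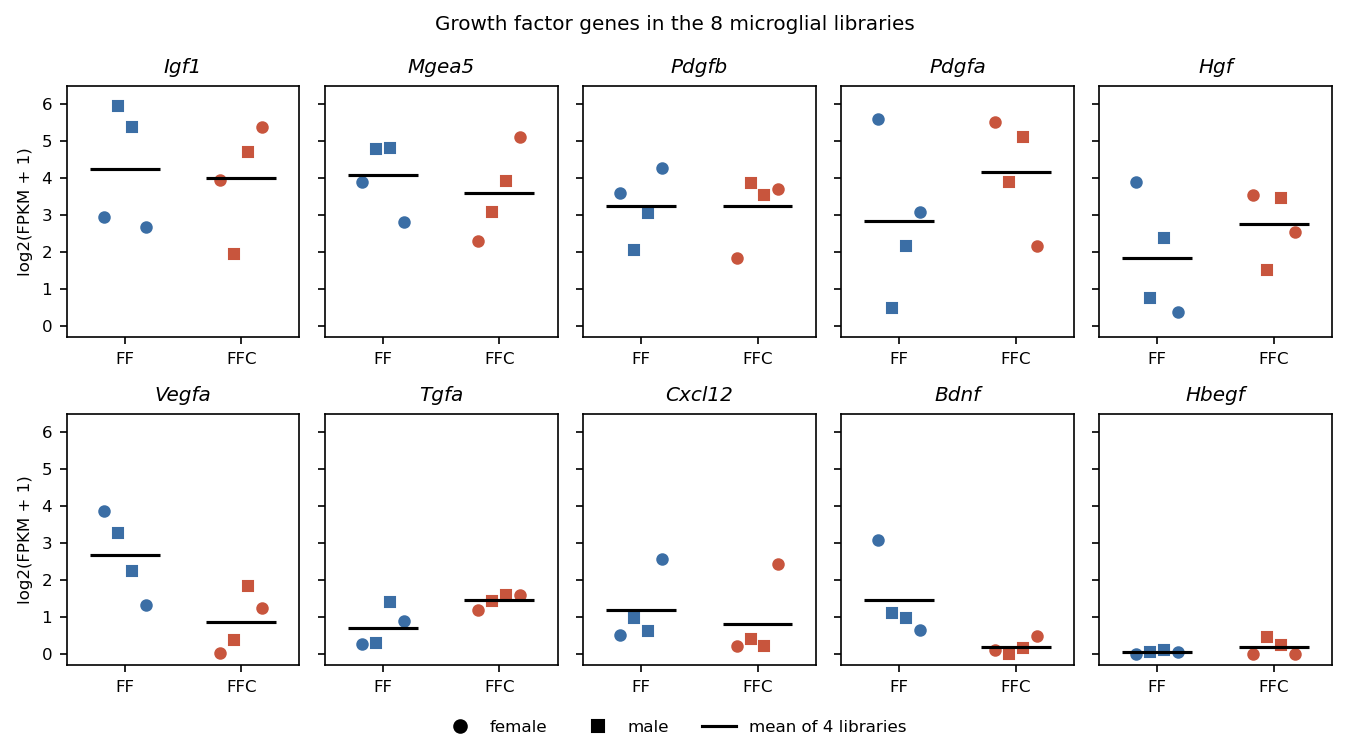
Level of each gene, as log2(FPKM + 1), in the 4 FF and 4 FFC libraries, with circles for females, squares for males and a line at the mean of 4 libraries; genes are ordered by their median level. The Bdnf points of FF and FFC do not overlap, those of Vegfa overlap slightly, and the genotypes overlap in each of the other 8 genes.

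Of the 10 genes, 9 had a mean of at least 1 FPKM and entered the test, and Hbegf did not. No gene of the 9 passed between FFC and FF. The test was limma's moderated linear model on log2(FPKM + 1), with Benjamini-Hochberg adjustment over all 17753 genes tested, and the adjusted p of the 9 ranged from 0.759 to 0.998. It called 0 genes in the whole table (percent called 0), while 6.46% of genes had an unadjusted p under 0.05 (4.52% higher and 1.94% lower in FFC), against 0 of the 9. Mean log2(FPKM + 1) was higher in FFC for 3 of the 9 genes and lower for 6, with a median difference of -0.24, where 56.7% of all tested genes were higher and 43.3% lower, with a median of 0.19. The median of the 9 was -0.70 without FFC 4 and 0.11 without FF 4. Upper-quartile scaling, quantile normalization and equal-sum scaling brought the median over all genes to 0.03, 0.03 and 0.04, and none of them turned the direction of any of the 9 genes. Under these scalings 1 of the 9, Vegfa, had an unadjusted limma p under 0.05 (0.0352, 0.0322 and 0.0377; adjusted p = 0.780, 0.753 and 0.770).

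**Figure D2:**
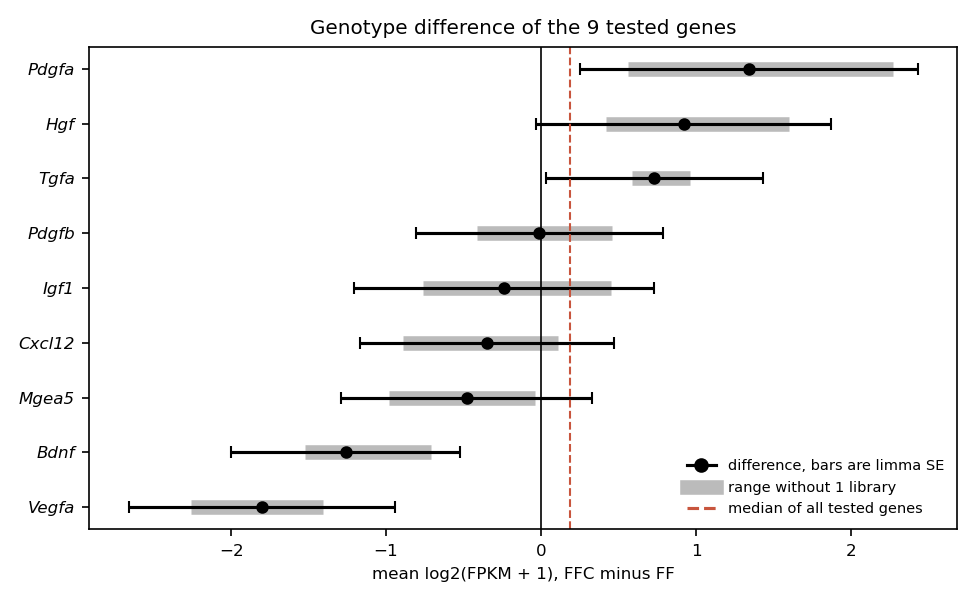
Difference of mean log2(FPKM + 1), FFC minus FF, for the 9 tested genes (points, with limma standard errors as bars), the range when each library is left out in turn (grey) and the median difference of all tested genes (dashed, 0.19). The grey ranges of Igf1, Pdgfb and Cxcl12 cross 0, and those of the other 6 genes do not.

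The levels per transcript length put the genes into a loose order. By the median FPKM of 8 libraries, Igf1 (19.9) came first, then Mgea5 (14.1), Pdgfb (10.9), Pdgfa (10.7), Hgf (4.58), Vegfa (2.05), Tgfa (1.46), Cxcl12 (0.485), Bdnf (0.482) and Hbegf (0.0303). Neighbours in this order did not differ beyond their spread within libraries: over the 9 neighbouring pairs the smallest exact two-sided sign-flip p was 0.0547 (Bdnf over Hbegf, higher in 6 of 8 libraries; adjusted p = 0.281 over the 9 pairs). Igf1, Pdgfb and Mgea5 were above 1 FPKM in all 8 libraries and Pdgfa in 7. Hgf and Vegfa were above 1 FPKM in 6 libraries, Tgfa in 5, Bdnf and Cxcl12 in 2 each, and Hbegf in 0. Igf1 lay above 43.5% to 94.5% of all tested genes, depending on the library.

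Igf1 encodes insulin-like growth factor 1, which promotes survival and division of glial and neural cells through the receptor Igf1r. The gene (ENSMUSG00000020053) spans 87321010 to 87399792 on chromosome 10 in the mm9 build. It measured 6.78, 61.0, 40.6 and 5.37 FPKM across FF 1 to FF 4, against 14.5, 2.86, 25.3 and 40.7 across FFC 1 to FFC 4. The genotypes overlapped, with the highest value in FF 2 and the lowest in FFC 2. The mean of log2(FPKM + 1) differed by -0.24 ± 0.97 (FFC minus FF, limma SE; adjusted p = 0.958), and leaving out FF 2, FF 3 or FFC 2 turned the sign (0.33, 0.14 and 0.45).

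Within each sex the Igf1 values of the genotypes did not overlap, and they lay in opposite directions. Each comparison is of 2 libraries against 2, and the share of all tested genes that separate this way was not computed. In females, FF 1 and FF 4 had 6.78 and 5.37 FPKM, and FFC 1 and FFC 4 had 14.5 and 40.7. In males, FF 2 and FF 3 had 61.0 and 40.6 FPKM, and FFC 2 and FFC 3 had 2.86 and 25.3. The sample titles of both FF males carry November and those of both FFC males December. In males, and so in the interaction, genotype and this month cannot be told apart. On the log2 scale FFC minus FF was 1.85 in females and -2.33 in males. The interaction of genotype and sex, which tests the difference between these 2 values, was 4.19 ± 1.65 (limma SE), with an unadjusted p of 0.0284 and an adjusted p of 1 over all genes. It did not pass, and the test called 0 genes (percent called 0). Of all tested genes 3.19% had an unadjusted interaction p under 0.05, and Igf1 was 1 of the 9 to do so.

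**Figure D3:**
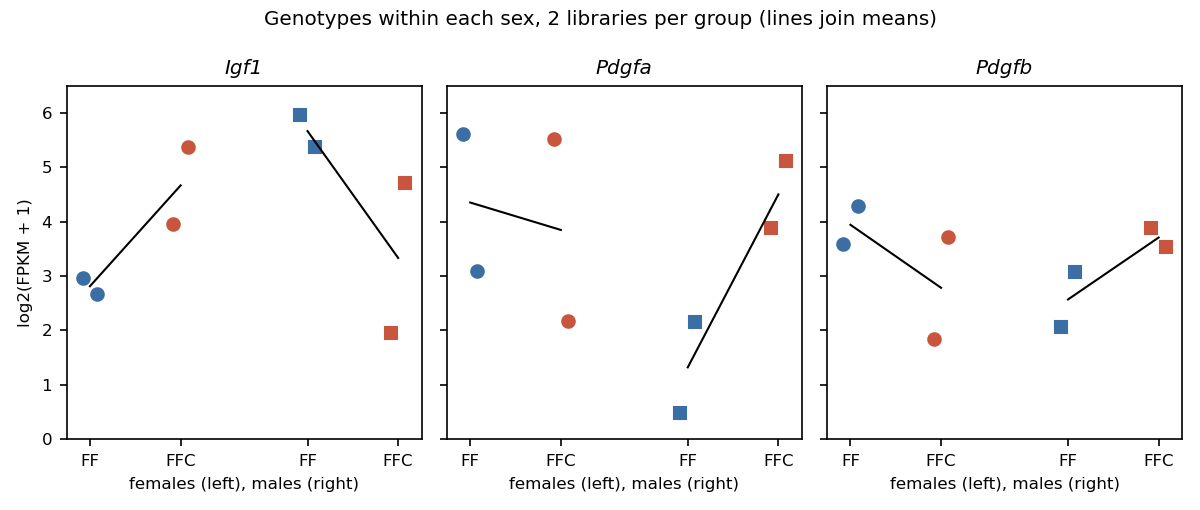
Igf1, Pdgfa and Pdgfb as log2(FPKM + 1) by genotype (FF blue, FFC red) within females (circles, left) and males (squares, right), 2 libraries per group, with lines joining group means. Igf1 is higher in FFC females and lower in FFC males than in FF, while Pdgfa and Pdgfb are higher in FFC males and overlap in females. These genes have the smallest unadjusted interaction p of the 9 (limma, 0.0284, 0.0938 and 0.175), and none passed. The share of all tested genes that separate within a sex was not computed. In males the genotypes also differ in title month.

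The receptor Igf1r averaged 4.11 ± 1.92 FPKM across FF and 5.05 ± 6.65 across FFC (SD, n = 4; limma adjusted p = 0.944). Of 13 other genes of the insulin-like growth factor axis, which holds Igf2, the insulin and Igf2 receptors, their adaptors and the binding proteins, 8 were tested and 0 passed, with 2 higher and 6 lower in FFC (median difference -0.54 on the log2 scale, from -0.86 without FF 2 to 0.15 without FF 3). Over all 13, with no filter, the median was -0.17, and over the 4 genes averaging at least 5 FPKM it was -0.02. Igf2 had 3.27, 0.933, 1.32 and 1.29 FPKM across FF, against 0.213, 0.110, 1.02 and 0.00453 across FFC. The scavenging receptor Igf2r had 1.54, 2.69, 2.69 and 2.68 FPKM across FF, against 1.85, 0.0999, 0.853 and 0.237 across FFC (limma adjusted p = 0.759 for each gene). Both genes overlapped between the genotypes through 1 FFC library each. The binding protein Igfbp7 had 15.4 ± 22.9 and 3.52 ± 3.16 FPKM, and Igfbp6 reached 10.2 FPKM in FF 1 while the other libraries lay between 0 and 0.260.

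Hgf encodes hepatocyte growth factor, the ligand of the receptor Met, which drives motility and growth. The gene (ENSMUSG00000028864) spans 16059368 to 16125257 on chromosome 5. It measured 14.0, 0.688, 4.25 and 0.293 FPKM across FF 1 to FF 4, against 10.7, 1.87, 10.1 and 4.90 across FFC 1 to FFC 4. FF 1 was the highest of all 8 libraries and FF 4 the lowest, so FF spanned the whole FFC range. The log2 difference of 0.92 ± 0.95 (limma SE; adjusted p = 0.785) was 0.42 without FF 4, 1.60 without FF 1 and -0.37 without FF 2 and FF 4.

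Met itself averaged 5.42 ± 1.83 FPKM across FF and 3.29 ± 3.06 across FFC (SD, n = 4; limma adjusted p = 0.773). Hepatocyte growth factor is secreted as an inactive chain that proteases cut, and inhibitors of the Spint family restrain them. Of 10 genes of this activation step and the related Mst1 pathway, 5 were tested and all 5 had a higher mean log2(FPKM + 1) in FFC, with 0 passing (median difference 0.75, from 0.67 without FF 4 to 1.74 without FF 1, and 0.26 without FF 2 and FF 4). The genes of this list under the filter all had lower means in FFC, with differences from -0.81 to -0.06. Over all 10, with no filter, the median was 0.32. The urokinase receptor gene Plaur had 5.14, 0.289, 2.58 and 6.88 FPKM across FF, against 21.6, 6.55, 15.1 and 6.63 across FFC (limma adjusted p = 0.759). The inhibitor Spint1 had 80.5, 7.18, 28.8 and 8.89 FPKM across FF, against 69.7, 41.5, 67.1 and 43.2 across FFC. In both genes FF 2 was the lowest library and the groups overlapped. Plau, the urokinase that can activate hepatocyte growth factor, had 21.7 ± 20.9 and 31.0 ± 22.4 FPKM, and the membrane protease Hpn had 13.9 ± 21.2 and 9.77 ± 6.99. For Hpn and the protease St14 (14.6 ± 20.9 and 11.3 ± 7.24) the mean FPKM was lower in FFC while the mean log2 value was higher, with FF 1 the highest library of each.

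Pdgfa and Pdgfb encode the A and B chains of platelet-derived growth factor. The A chain is the classical mitogen of oligodendrocyte precursors and the B chain recruits pericytes. Pdgfa (ENSMUSG00000025856, chromosome 5, 139451968 to 139473324) measured 48.1, 0.395, 3.47 and 7.52 FPKM across FF 1 to FF 4, against 45.0, 13.9, 33.8 and 3.53 across FFC 1 to FFC 4. The high libraries were FF 1, FFC 1 and FFC 3, and FF 2 was far below the rest. The log2 difference of 1.34 ± 1.09 (limma SE; adjusted p = 0.759) was the highest of the 9 genes, and its spread within genotypes (SD of 1.85 on the log2 scale) was also the widest, against a median of 1.23 over all tested genes. It was 0.56 without FF 2, 2.27 without FF 1 and 0.29 without both FF 2 and FF 4. Pdgfa shares its locus with 6330403L08Rik, which had 0.995 to 9.92 FPKM, and the counting is not stated to use strand.

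Pdgfb (ENSMUSG00000000489, chromosome 15, 79826330 to 79845238) measured 11.1, 3.18, 7.41 and 18.6 FPKM across FF 1 to FF 4, against 2.61, 13.8, 10.6 and 12.2 across FFC 1 to FFC 4. The genotypes had nearly the same mean, with a log2 difference of -0.01 ± 0.80 (limma SE; adjusted p = 0.998). Leaving out FFC 1, FF 4 or FF 1 turned its sign (0.46, 0.34 and 0.10). In males FFC minus FF was 3.19 for Pdgfa and 1.14 for Pdgfb, with both FFC libraries above both FF libraries, and in females it was -0.50 and -1.16. How many of all tested genes separate this way in males was not computed. Both FF males are titled November and both FFC males December, so genotype and title month cannot be told apart in males or in the interaction. The interaction was -3.69 ± 2.00 for Pdgfa (limma SE; adjusted p = 1) and -2.31 ± 1.59 for Pdgfb (adjusted p = 1).

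The receptors of the A and B chains are mainly genes of other cells, and both had means under the filter. Pdgfra, the receptor of oligodendrocyte precursors and some fibroblasts, had 5.92, 1.23, 0.422 and 0.202 FPKM across FF, against 0.0278, 0.0465, 0.0807 and 0.0248 across FFC. Every FFC value lay below every FF value, as it did for 1.41% of the genes under the filter (every FFC value was above every FF value for 0.62%). Pdgfrb, the pericyte receptor, had 0.0807 to 1.60 FPKM in FF and 0 to 3.99 in FFC. Among 10 relatives of the platelet-derived and vascular endothelial growth factors, 5 were tested and 0 passed, with 3 higher and 2 lower (median difference 0.61, from 0.24 without FFC 1 to 0.89 without FFC 2). Over all 10, with no filter, the median was -0.07. Vegfb, a relative with little effect on vessel sprouting, averaged 5.41 ± 4.12 FPKM across FF and 7.63 ± 5.40 across FFC, and Vegfc, the lymphatic ligand, was 9.73 in FF 1 and at most 0.515 elsewhere.

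Vegfa and Bdnf were the 2 genes with the lowest values in FFC relative to FF. Vegfa encodes the main angiogenic factor of hypoxic tissue, and Bdnf a neurotrophin that microglia can release onto neurons. Vegfa (ENSMUSG00000023951, chromosome 17, 46153942 to 46169326) measured 13.6, 8.69, 3.72 and 1.49 FPKM across FF 1 to FF 4, against 0.0130, 0.305, 2.61 and 1.34 across FFC 1 to FFC 4. FF 1, FF 2 and FF 3 lay above every FFC library, and FF 4 fell inside the FFC range. The log2 difference was -1.80 ± 0.86 (limma SE; unadjusted p = 0.0564, adjusted p = 0.759; exact two-sided permutation p = 0.0571). It ranged from -2.26 without FF 4 to -1.41 without FF 1. The sample titles carry a month, of which the labels do not say what it dates, and the difference was -3.11 in November (3 FF libraries, 1 FFC) and -0.16 in December (1 FF library, 3 FFC).

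Bdnf (ENSMUSG00000048482, chromosome 2, 109514857 to 109567164) measured 7.44, 1.14, 0.942 and 0.569 FPKM across FF 1 to FF 4, against 0.0815, 0, 0.121 and 0.395 across FFC 1 to FFC 4, where FFC 2 is listed at 0. Every FFC value lay below every FF value, which held for 1 of the 9 genes and for 1.29% of all tested genes (4.34% did not overlap in either direction). The log2 difference was -1.26 ± 0.74 (limma SE; adjusted p = 0.759), and the exact permutation p (two-sided) was 0.0286, the smallest that 4 against 4 libraries can give and not adjusted over the genes examined. Bdnf passed the filter only through FF 1. Without that library its mean was under 1 FPKM, it was not tested, and the difference was -0.71. The difference was -1.60 in November and -0.43 in December. With pseudocounts of 0.1 and 5 the difference was -2.92 and -0.46, and most values lay under 1 FPKM.

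The upstream sequences of these genes are shown as those of the 2 genes lowest in FFC relative to FF. They are the 250 bases before the most upstream RefSeq start of each gene, read 5′ to 3′ on the gene's strand, from RefSeq on GRCm38.p6, a later build than the mm9 of the table. Capitals mark matches on either strand to ACGTG, a form of the core of the hypoxia response element, and GGGCGG, the GC box. Other forms of that core were not searched. The Vegfa window is chr17:46032378-46032627 on the minus strand and the Bdnf window chr2:109674450-109674699 on the plus strand.
Vegfa: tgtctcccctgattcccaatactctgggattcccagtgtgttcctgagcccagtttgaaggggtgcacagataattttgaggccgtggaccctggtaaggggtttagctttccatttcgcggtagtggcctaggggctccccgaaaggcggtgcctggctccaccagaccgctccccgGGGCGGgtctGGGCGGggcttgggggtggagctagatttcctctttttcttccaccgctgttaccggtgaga
Bdnf: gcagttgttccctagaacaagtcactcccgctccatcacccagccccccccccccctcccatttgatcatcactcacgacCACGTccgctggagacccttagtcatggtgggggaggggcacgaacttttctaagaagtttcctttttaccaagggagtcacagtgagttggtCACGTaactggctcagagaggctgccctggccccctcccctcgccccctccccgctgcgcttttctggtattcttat
The Vegfa window held 2 GC boxes and the Bdnf window 2 matches to ACGTG. Of the 10 genes, 8 had an entry, with 17 start sites in all; Pdgfb and Hbegf had none. ACGTG occurred in 3 of the 17 windows, and in 16.6% of 32851 windows of the same length over all genes. TGACG, the cyclic AMP response half-site, occurred in 4 of 17 and 17.8%, and GGGCGG in 8 of 17 and 32.7%. In 2 windows, 1 of Vegfa and 1 of Bdnf, ACGTG and TGACG overlapped.

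Vegfa and Bdnf were both highest in FF 1 and lowest in FFC 1 and FFC 2. Across the 8 libraries they had a Pearson r of 0.84 on the log2 scale (exact permutation p = 0.00136, adjusted p = 0.0491 over 36 pairs) and a Spearman rho of 0.90 (exact permutation p = 0.00456, adjusted p = 0.164). Without FF 1 and FF 2, the libraries farthest from the Vegfa median, r was 0.72. This r includes the difference between the genotypes, since both genes were lower in FFC and Bdnf passed the filter only through FF 1. With the genotype means removed, r was 0.69 (exact permutation within genotypes, p = 0.0833, adjusted p = 0.823). The adjusted p passed under 2 of 13 alternatives (0.0214 without FFC 3 and 0.0357 with a pseudocount of 5) and ranged from 0.0214 to 0.823, so the relation did not hold up.

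No other pair passed over the 36. Tgfa with Bdnf had the next smallest p (r = -0.75, exact permutation p = 0.0185, adjusted p = 0.333; rho = -0.69, exact permutation p = 0.0694), and its r was -0.21 without FF 1 and FF 2 and so rests on them. Igf1 with Mgea5 had r = 0.74 (exact permutation p = 0.0441) and rho = 0.76 (exact permutation p = 0.0368). Hgf with Pdgfa had r = 0.72 (exact permutation p = 0.0473) and rho = 0.74 (exact permutation p = 0.0458). Both had an adjusted p of 0.398 for r and 0.517 for rho, and r of 0.65 and 0.69 without the 2 libraries farthest from the median of the gene on the x axis. With the genotype means removed, r was -0.51 for Tgfa with Bdnf, 0.75 for Igf1 with Mgea5 and 0.68 for Hgf with Pdgfa.

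**Figure D4:**
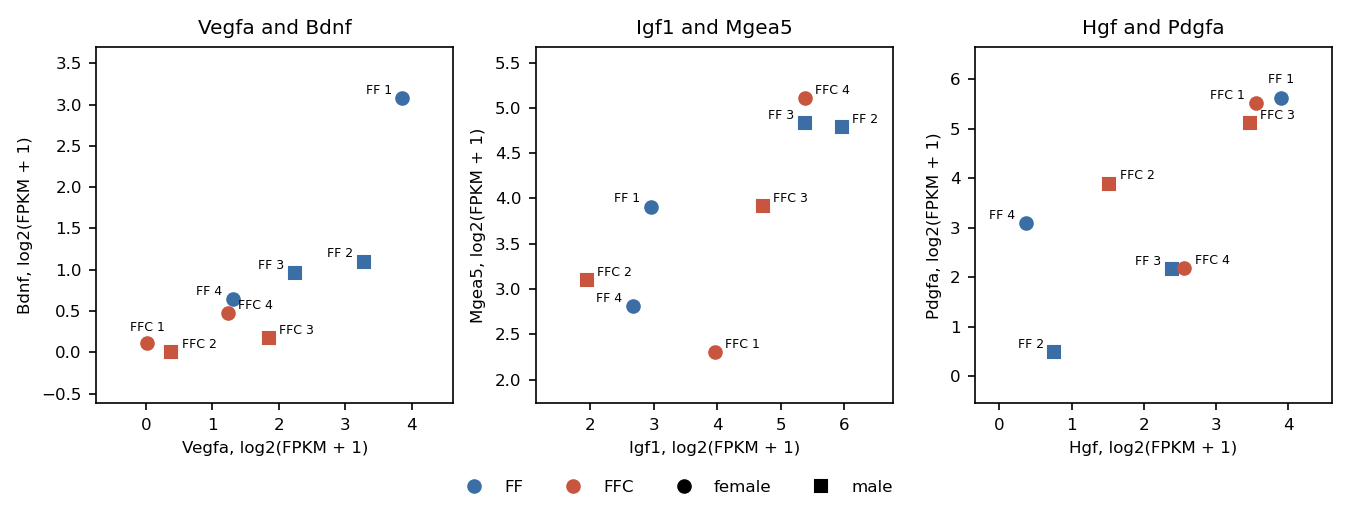
Level of Bdnf against Vegfa, Mgea5 against Igf1 and Pdgfa against Hgf, each as log2(FPKM + 1), with 1 labelled point per library (FF blue, FFC red; circles female, squares male). FF 1 is highest for Vegfa and Bdnf, and FFC 1 and FFC 2 are at or near 0 for both; FF 2 is low for Hgf and Pdgfa.

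Marker lists of other cell types differed in direction between the genotypes, and their part in the Vegfa, Bdnf, Pdgfra and Egfr values was not tested. The mean log2(FPKM + 1) of 10 endothelial markers was 1.43 to 2.02 for FF and did not reach that range for FFC, at 1.10 to 1.34, with summed FPKM of 24.3 to 55.0 and 21.1 to 32.4. Of the 9 tested endothelial markers 6 were lower in FFC, and Esam, Ly6c1 and Cldn5 were at 0 in some library. Without Esam, the marker with the largest difference, the endothelial means overlapped (1.40 to 2.05 and 1.22 to 1.49). The mean over 11 astrocyte markers did not overlap between the genotypes (FF from 1.46 to 2.53, FFC from 1.04 to 1.46, the nearest libraries being equal to the digits printed), with summed FPKM of 117 to 326 and 91.8 to 189. Most of each FFC sum was Slc1a3, at 85.8, 162, 124 and 182 FPKM across FFC, against 192, 62.6, 185 and 49.7 across FF. Its mean log2 value was higher in FFC by 0.37. Of the 7 tested astrocyte markers 4 were lower, and 7 of the 11 were at 0 in some library, Gfap (0 to 1.03 FPKM) among them. Clu, a secreted chaperone in that list, had the widest gap, at 127, 36.3, 23.4 and 61.9 FPKM across FF, against 0.887, 1.84, 3.45 and 0.0124 across FFC (limma adjusted p = 0.382). Without Clu the astrocyte means overlapped (1.01 to 2.26 for FF and 1.05 to 1.42 for FFC). The oligodendrocyte lineage mean, whose list holds Pdgfra, overlapped as well (0.80 to 1.38 for FF and 0.94 to 1.18 for FFC), with 4 of its 5 tested markers higher in FFC. The mural and fibroblast mean overlapped (0.93 to 2.37 in FF, 0.64 to 1.16 in FFC), as did the neuron mean (0.25 to 0.69 and 0.24 to 0.47). Of the 6 tested mural and fibroblast markers 1 was higher and 5 lower in FFC. Their median difference was -1.07, from -1.48 without FF 3 to -0.56 without FF 2. Of 10 border macrophage and monocyte markers, 8 had values in all libraries. Their mean overlapped (3.16 to 4.89 in FF, 3.14 to 4.49 in FFC), with summed FPKM of 244 to 905 and 119.5 to 695. Of these 8 markers 3 were higher and 5 lower in FFC, and their part in the growth factor values was not tested. Kdr, an endothelial marker and the main Vegfa receptor, had 3.45, 15.0, 1.15 and 10.9 FPKM across FF, against 1.88, 1.54, 0.721 and 2.04 across FFC. In bulk RNA, fewer cells of a type and less RNA per cell cannot be told apart.

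The other receptors of Vegfa had higher mean log2 values in FFC, by 0.06 for Flt1, 0.81 for Nrp1 and 0.84 for Nrp2, and none passed. Flt1, the high-affinity receptor, had 0.307, 1.35, 0.0650 and 28.7 FPKM across FF, against 1.33, 0.396, 12.7 and 1.56 across FFC, with a single high library in each genotype (limma adjusted p = 0.991). The coreceptors Nrp1 and Nrp2 averaged 15.8 ± 6.90 and 1.63 ± 1.33 FPKM across FF, against 27.4 ± 8.65 and 3.34 ± 0.725 across FFC (SD, n = 4; limma adjusted p = 0.759 and 0.763). For Bdnf, the receptor Ntrk2 was between 0 and 0.709 FPKM, and Ngfr, the low-affinity neurotrophin receptor, was between 0 and 2.08.

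Of 14 hypoxia response genes, 13 had values in all libraries, 10 were tested and 0 passed, with 7 higher and 3 lower in FFC (median difference 0.32, from -0.01 without FF 4 to 1.10 without FF 1). Hif1a, the oxygen-regulated subunit, had 35.1, 15.3, 22.1 and 6.61 FPKM across FF, against 22.0, 31.6, 47.7 and 37.8 across FFC, while its relative Epas1 had 10.5 ± 8.42 and 5.53 ± 8.21 (SD, n = 4; limma adjusted p = 0.759 and 0.761). The hypoxia targets Ankrd37 and Ddit4 were highest in FF 1 and FF 2, the libraries with the most Vegfa, at 11.9 and 1.92 FPKM for Ankrd37 and 1.64 and 10.9 for Ddit4. In FFC they reached at most 0.786 and 0.0213. Other targets in the list were highest elsewhere, Bnip3 in FFC 4 (105 FPKM), Pdk1 in FFC 2 (75.3), P4ha1 in FF 4 (60.1) and Ndrg1 in FFC 1 (1.96).

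Of 12 neurotrophin and processing genes, 5 were tested and 0 passed, with 3 higher and 2 lower (median difference 0.66, from 0.22 without FF 4 to 1.21 without FF 2). Over all 12, with no filter, the median was -0.09. The protease Furin, which can cleave the Bdnf precursor, had 4.51, 3.37, 26.5 and 7.77 FPKM across FF, against 29.5, 26.3, 15.4 and 26.8 across FFC (limma adjusted p = 0.759). A second convertase gene, Pcsk7, lay the other way, at 9.13 ± 5.39 in FF and 2.64 ± 1.93 in FFC. The sorting receptor Sort1 had 47.2 ± 45.4 and 51.3 ± 12.7.

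Tgfa and Hbegf encode membrane-bound ligands of the EGF receptor that are released by shedding. Tgfa (ENSMUSG00000029999, chromosome 6, 86145420 to 86225151) measured 0.210, 0.210, 1.65 and 0.868 FPKM across FF 1 to FF 4, against 1.28, 1.69, 2.01 and 2.01 across FFC 1 to FFC 4. All 4 FFC libraries were above 1 FPKM against 1 of 4 in FF, and only FF 3 fell inside the FFC range. The log2 difference was 0.73 ± 0.70 (limma SE; adjusted p = 0.768; exact two-sided permutation p = 0.0571), and it lay between 0.59 and 0.96 when each library was left out. Its spread within genotypes was the narrowest of the 9 genes (SD of 0.41), at a low level. Hbegf (ENSMUSG00000024486, chromosome 18, 36664583 to 36675459) had 0, 0.0269, 0.0748 and 0.0336 FPKM across FF, against 0, 0.376, 0.179 and 0 across FFC, and no fold is given at this level.

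Genes of the release step did not pass, and the receptors of these ligands were too low to be tested. Of 13 genes of the EGF family and its sheddases, 12 had values in all libraries and 6 were tested, with 3 higher and 3 lower in FFC and a median difference of 0.06 (-0.14 without FF 2, and -0.04 over all 12 with no filter). Adam17, the protease that sheds Tgfa, had 15.6, 14.2, 31.4 and 20.7 FPKM across FF, against 26.5, 46.9, 58.0 and 57.6 across FFC, so that FF 3 alone overlapped the FFC range (limma adjusted p = 0.759; exact two-sided permutation p = 0.0571). Rhbdf2, which carries Adam17 to the surface in myeloid cells, had 8.42, 1.96, 2.82 and 1.96 FPKM across FF, against 6.43, 9.14, 14.2 and 8.54 across FFC (limma adjusted p = 0.759). Its relative Rhbdf1 had 8.49 ± 11.0 and 5.00 ± 7.97. Nrg1, a ligand of the ErbB receptors, had 0.330, 2.09, 0.689 and 13 across FF, against 0.850, 0.0348, 0.192 and 0 across FFC. Egfr was under the filter, at 0.234 to 2.35 FPKM for FF, above the 0.108 to 0.201 of FFC, and so was Erbb3, at 0.481 to 2.04 and 0.0164 to 0.205, also without overlap. Every FFC value lay below every FF value for 1.41% of the genes under the filter. Erbb4 had 0.126 to 0.745 and 0.0446 to 1.22. Erbb3 was singled out after its values were seen.

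Cxcl12 encodes a chemokine made mainly by vascular and meningeal cells. The gene (ENSMUSG00000061353, chromosome 6, 117118553 to 117131385) measured 0.420, 0.973, 0.550 and 4.99 FPKM across FF 1 to FF 4, against 0.165, 0.331, 0.156 and 4.43 across FFC 1 to FFC 4. The highest library of each genotype, FF 4 and FFC 4, stood apart from 6 libraries under 1 FPKM. Both are female, as are FF 1 and FFC 1, which were low. The log2 difference of -0.35 ± 0.82 (limma SE; adjusted p = 0.913) was 0.11 without FF 4 and -0.89 without FFC 4. Its receptor Cxcr4, present on microglia and other leukocytes, had 6.22, 0.224, 3.82 and 35.6 FPKM across FF, against 0.803, 7.07, 3.77 and 2.88 across FFC, and Cxcr7, a scavenging receptor, had 4.59, 3.93, 0.520 and 0.922 across FF, against 0.444, 1.82, 0.412 and 0.382 across FFC. Neither passed (limma adjusted p = 0.873 and 0.765).

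Mgea5 (ENSMUSG00000025220, chromosome 19, 45824751 to 45858236) was among the more abundant of the 10 genes. It measured 14.0, 26.6, 27.5 and 6.03 FPKM across FF 1 to FF 4, against 3.93, 7.55, 14.1 and 33.5 across FFC 1 to FFC 4. The highest and the lowest library were both FFC. The log2 difference was -0.48 ± 0.81 (limma SE; adjusted p = 0.878), -0.98 without FFC 4 and -0.04 without FFC 1.

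Of 10 genes of the O-GlcNAc cycle and the hexosamine pathway, which makes the donor sugar, 9 were tested and 0 passed, with 3 higher and 6 lower (median difference -0.25, from -0.52 without FF 1 to 0.08 without FF 3). Nanp, a phosphatase of sialic acid synthesis, had 0.280, 0.151, 0.391 and 0.189 FPKM across FF, against 10.9, 5.19, 1.43 and 18.5 across FFC. It was the 1 gene of the list without overlap, every FFC value being above every FF value, as for 3.05% of all tested genes (limma unadjusted p = 0.00812, adjusted p = 0.655). Nanp averaged 0.253 FPKM across FF and 9.01 across FFC, so it passed the filter only through FFC, which favours such a separation. The pathway enzymes Pgm3 and Uap1 averaged 2.05 ± 1.15 and 25.2 ± 36.5 FPKM across FF, against 4.82 ± 2.13 and 5.68 ± 2.96 across FFC, and Gnpnat1 had 3.92 ± 3.85 and 1.72 ± 1.89 (SD, n = 4).

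Split by the month in the sample title, Igf1 and Mgea5 lay in opposite directions, at -0.81 and -2.21 in November and 1.35 and 1.23 in December (FFC minus FF on the log2 scale). The direction was the same in both months for Hgf (1.19 and 2.15), Pdgfa (2.77 and 0.64), Tgfa (0.54 and 0.63), Pdgfb (-1.06 and -0.58) and Cxcl12 (-0.49 and -1.56). Each month rests on a single library of 1 genotype.

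Between the sexes, with genotype as a covariate, 0 of the 9 genes passed (percent called 0 over all genes, 3.99% with an unadjusted p under 0.05; smallest adjusted p of the 9 = 0.953 by limma). Over all tested genes the smallest adjusted p was 0.152 (limma), so no gene of any chromosome was called and real differences between the sexes may be missed. The sex labels were not checked against sex-linked genes. No gene of the 10 separated females from males without overlap, against 2.43% of all tested genes. The largest female minus male difference in size was 1.19 ± 1.08 on the log2 scale for Pdgfa (limma SE; adjusted p = 0.953).

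For the 5 genes averaging 5 FPKM or more with no library at 0, the other genes with the most similar pattern were found by Pearson correlation of log2(FPKM + 1) over 8 libraries. The values share libraries and their normalization, and the top values are those of a search over many genes. Among 7034 genes compared, those most like Igf1 were Nfix (r = 0.955), a transcription factor gene, and Alms1 (0.929). For Hgf they were the class I gene H2-T23 (0.961), whose reads may be shared with near-identical copies, and the helicase gene Dhx35 (0.954). Iars2 (0.965) and Gyg (0.955) were the most like Pdgfa, Cstf2t (0.962) and Pla2g15 (0.961) the most like Pdgfb, and Mapk1ip1l (0.957) and Rttn (0.946) the most like Mgea5. By Spearman correlation Nfix for Igf1 and Cstf2t for Pdgfb were again among the top 2, and the other 8 were not.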

How the data were processed

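The FPKM values of 8 libraries of sorted microglia were used as deposited, in 1 gene table of the authors with 37447 genes. The build is mm9; the submitters' processing notes list Cufflinks 2.0.2, Bowtie2 2.0.0, TopHat2 2.0.4 and CASAVA 1.8.2, without their roles. For the annotation used in counting, no name is given in the sources used here. Per the labels' protocols, cDNA was made with the Ovation RNA-Seq method. Genes with a missing value (447) were dropped. Table starts count from 0 (21680 genes then match the GENCODE length, 420 otherwise) and are printed from 1. Values entered as log2(FPKM + 1), which understates the change of low genes. The 17753 genes averaging 1 FPKM or more were tested with limma 3.58.1 in R 4.3.3 (moderated by empirical Bayes with an intensity trend; two-sided; Benjamini-Hochberg; threshold 0.05). Single values were compared by exact permutation over 70 arrangements. Other steps used matplotlib 3.10.9, scipy 1.17.1, pandas 2.3.3, numpy 2.4.6 and Python 3.11.15. The fit was tested on simulated data. The 10 genes and the lists were chosen with earlier results of these data known. Beside the 10, the rule named every receptor, up to 4 genes per pathway list with the smallest unadjusted p, and the 2 genes most like each abundant gene; marker genes and Erbb3, St14, Bnip3, Pdk1, P4ha1 and Ndrg1 were named outside it, after their values were seen. A gene that the rule named is not reported here.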

Additional observations from a re-analysis of the deposited data

Results flagged for a closer look

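Igf1 lay in opposite directions in the sexes: both FFC females were above both FF females and both FFC males below both FF males. The share of all tested genes with such a pattern was not computed. The interaction of 4.19 on the log2 scale did not pass over all genes (limma adjusted p = 1), and it lay between 2.80 and 5.57 when each library was left out. Each of those fits leaves a single library in a group of sex and genotype, so this range cannot show that the interaction is firm.

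On the log2(FPKM + 1) scale, a library stood far from the other 3 of its genotype in 2 of the 20 groups of 4 examined, where chance gives about 1 in 20. The gap to the nearest library was 0.832 of the range for Pdgfb and 0.909 for Cxcl12. The count depends on this scale, since in FPKM other libraries stand apart, such as FF 1 for Bdnf (7.44 against 0.569 to 1.14 in the other FF libraries). Pdgfb was 2.61 FPKM in FFC 1, against 10.6 to 13.8 in the other FFC libraries. Cxcl12 was 4.43 FPKM in FFC 4, against 0.156 to 0.331 in the others.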

How the results depend on the processing

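None of the 9 tested genes and none of the pathway genes passed under any alternative run (other pseudocounts, filters and scalings, array weights, added covariates, and libraries left out). Over all genes, the count called between FFC and FF was 0 as reported, 4 without FF 2 and FF 4, and 0 to 2 when each library was left out (1 without FF 1, FF 3 or FFC 4, and 2 without FF 4). It was 0 to 4 between the sexes and 0 to 1 for the interaction when each library was left out, and 6 for the interaction without the filter. The median difference of the tested genes lay between -0.70 and 0.11 over single libraries left out. The sign of Igf1 turned with the month named in the sample title as a covariate (0.27), and its values without 1 library ran from -0.76 to 0.45. Pdgfb turned with array weights (0.15) and ran from -0.41 to 0.46, and Cxcl12 turned without FF 2 and FF 4 (0.25) and ran from -0.89 to 0.11. Hgf was -0.37 without FF 2 and FF 4. The cause of these changes was not tested. With the replicate number as a block, 0 genes were called over all genes and the median of the tested genes was -0.24; the block changed no call. Same-numbered libraries deviated from their group means with correlations of -0.052 to 0.034, which gives no sign of a pairing. They are of the same sex in the labels, and whether they were paired by design cannot be decided from these correlations. A filter at 5 FPKM left no value for the low genes. Under 13 alternatives chosen after the data were seen, the r of Vegfa and Bdnf lay between 0.69 and 0.89, and its adjusted p over 36 pairs passed under 2. Those of Tgfa with Bdnf, Igf1 with Mgea5 and Hgf with Pdgfa had an adjusted p that passed under 0. An unadjusted limma p under 0.05 was found for 0 of the 9 genes as reported and for 1 under 7 alternatives (the 3 scalings, a pseudocount of 0.1, no filter, and without FF 1 or FF 4), which was Pdgfa without FF 1 and Vegfa otherwise. With no depth known, no limit from depth is given.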
